A study of Mus musculus with 8 samples.

Results

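Granulocyte-monocyte progenitors and promyelocytes are the early cells of the neutrophil and monocyte line that fill the first granules of the future neutrophil. They were found here as cells with at least 10 Elane UMIs, at least 20 Mpo UMIs and a sum of Elane, Mpo and Prtn3 above that of Camp, Ltf and Ngp. A UMI is a molecular barcode that counts 1 captured RNA molecule. The rule held for 810 of 24942 cells, 3.25% (exact binomial interval 3.03 to 3.48%). The cells were thus chosen by their UMIs of these 6 genes, whose levels are given as a description and support nothing.

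The series holds single cells of erythroblastic islands, in which maturing red cells surround a macrophage, from bone marrow and spleen of male mice of the lupus-prone strain Sle1.Yaa. Mice with the human TLR8 transgene (Sle1.Yaa.huTLR8tg) were labelled anemic, and Sle1.Yaa controls without it non-anemic. All groups share the Sle1.Yaa background. The labels give no age, promoter or transgene line. They list 2 transgenic marrow, 3 control marrow, 2 transgenic spleen and 1 control spleen libraries, and do not say how many mice each library holds. The series set out to compare transgenic with control islands. The deposited table names its cells by barcode alone, so no cell could be tied to a tissue or genotype and no such comparison was made. The cells are 1 pooled sample, no test between conditions is given, and all intervals cover counting error only.

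In textbook accounts, a granulocyte-monocyte progenitor gives rise to neutrophils and monocytes, with Cebpe and Gfi1 as factors of the neutrophil branch and Irf8 and Klf4 as factors of the monocyte branch. The promyelocyte that follows makes the primary (azurophil) granules, which hold neutrophil elastase (Elane), proteinase 3 (Prtn3), cathepsin G (Ctsg) and myeloperoxidase (Mpo). The next stage stops making these proteins and fills secondary granules with cathelicidin (Camp), lactoferrin (Ltf) and Ngp. The RNA of a granule gene thus marks a stage in time.

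The stretches before the RefSeq starts of the 4 marker genes are shown because their RNAs were high in the same cells. Elane and Prtn3 are near neighbours on chromosome 10 (GRCm38, GENCODE: Elane at chr10:79886247-79888215 and Prtn3 at chr10:79874476-79883174, both on the plus strand). Mpo lies at chr11:87793581-87804413 on the plus strand and Ctsg at chr14:56099881-56102574 on the minus strand. Each run of letters holds the 250 bases before the RefSeq start in GRCm38.p6, 5′ to 3′ along the gene's strand, at chr10:79886062-79886311, chr10:79879417-79879666, chr14:56102575-56102824 and chr11:87793534-87793783 in the order given. The annotations differ in where these genes start: by the GENCODE spans, the Prtn3 window lies inside the gene and the Elane and Mpo windows run across its start. Capitals mark matches, on either strand, to the letters GAGGAA, a core of the PU.1 (Spi1) motif, and to CAACNG or TAACNG, a core of the Myb motif.
Elane: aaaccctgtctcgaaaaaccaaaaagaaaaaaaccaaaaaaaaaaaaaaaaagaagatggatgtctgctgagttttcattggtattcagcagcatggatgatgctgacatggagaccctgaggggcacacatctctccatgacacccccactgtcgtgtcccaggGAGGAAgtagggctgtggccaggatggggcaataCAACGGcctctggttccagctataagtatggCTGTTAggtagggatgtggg
Prtn3: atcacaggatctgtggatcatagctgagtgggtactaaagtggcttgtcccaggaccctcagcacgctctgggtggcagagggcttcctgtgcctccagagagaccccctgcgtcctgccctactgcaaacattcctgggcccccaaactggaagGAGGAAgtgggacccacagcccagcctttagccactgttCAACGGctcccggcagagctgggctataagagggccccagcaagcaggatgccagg
Ctsg: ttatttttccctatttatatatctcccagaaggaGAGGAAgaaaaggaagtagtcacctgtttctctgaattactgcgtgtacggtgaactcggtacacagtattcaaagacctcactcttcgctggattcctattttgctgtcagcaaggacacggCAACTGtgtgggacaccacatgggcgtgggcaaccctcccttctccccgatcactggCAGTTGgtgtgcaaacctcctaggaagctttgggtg
Mpo: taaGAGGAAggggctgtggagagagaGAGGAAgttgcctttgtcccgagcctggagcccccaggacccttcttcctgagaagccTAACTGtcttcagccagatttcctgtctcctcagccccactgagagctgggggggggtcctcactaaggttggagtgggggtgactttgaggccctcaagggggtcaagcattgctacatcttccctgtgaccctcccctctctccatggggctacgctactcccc
All 4 windows held both sets of letters, as did 9.68% of 32851 RefSeq windows of the same length. GAGGAA alone occurred in 23.3% of them and the Myb letters in 43.1%. In Elane, GAGGAA began 85 bases before the start and CAACGG 51 bases before it. In Prtn3 the same letters began 95 and 56 bases before the start. The C/EBP letters TTGCNNAA, found in 9.56% of all windows, were not in these 4. No 2 matches overlapped within a window. A match is a description of letters and not a binding site. In the members, Spi1 stood at 296 CPM and Myb at 220 CPM (UMIs of a gene per 1000000 UMIs of the summed cells).

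The barcodes of the table came in 8 stretches, or runs, each in alphabetical order, a number equal to that of the libraries. They are used here as unnamed libraries and were not matched to groups. Members made up 3.80, 3.19, 3.07, 3.92, 0.587, 4.67, 0.975 and 0.671% of the cells of runs 1 to 8. Runs 5, 7 and 8 thus held few members, with 17, 17 and 3 cells, and only the other 5 runs enter ranges over runs. Run 6 stood apart: it held 317 members, 39.1% of all, and their median depth was 15735 UMIs against 26629 to 32848 UMIs in the other runs. With thresholds set per 10000 UMIs, the shares of runs 1 to 8 became 4.81, 4.29, 3.95, 4.39, 1.28, 4.80, 1.32 and 1.34%, so runs 5, 7 and 8 stayed the lowest. Over all runs the median member had 23982 UMIs and 4116 genes, against 7554 UMIs and 1584 genes in all cells. Of 1031 cells whose barcode occurred in more than 1 run, 7 were members.

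**Figure D1:**
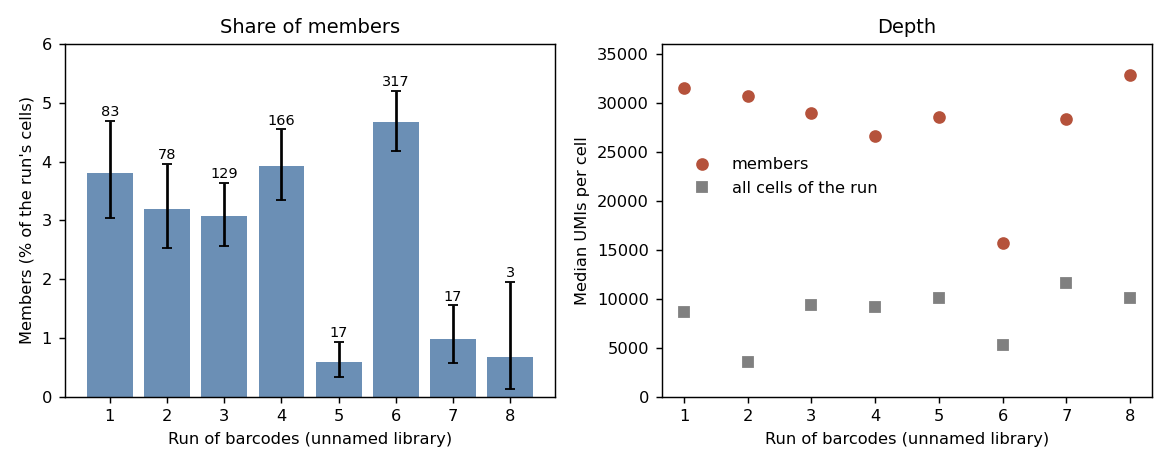
Left, members as percent of the cells of each run of barcodes, with exact 95% binomial intervals and the number of members above each bar. Right, median UMIs per member and per cell of the same run. Runs 5, 7 and 8 held under 1% members, and the members of run 6 were the shallowest, at 15735 UMIs.

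The primary granule genes of the rule were high in the members of every run. Elane, a serine protease that digests bacterial proteins and matrix, stood at 13422, 9263, 13185, 12245 and 11613 CPM in runs 1, 2, 3, 4 and 6. Prtn3, a related serine protease, stood at 16458, 13388, 14209, 12245 and 13136 CPM. Mpo, the peroxidase that makes hypochlorous acid, stood at 5185, 4761, 6820, 7033 and 5629 CPM. For each of these 3 genes the highest run was less than 2-fold above the lowest. The median member held 257.5 Elane, 134 Mpo and 291 Prtn3 UMIs. Erythroid cells, those with at least 20% globin UMIs, can serve as a measure of free RNA, and 13.8% of them had an Elane UMI, with a level of 16.3 CPM and a median depth of 8671.5 UMIs.

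Ctsg, the fourth marker, took no part in the rule. This chymotrypsin-like granule protease had at least 1 UMI in all 810 members and a median of 81. Its level was 5576, 5747, 4192, 3464 and 3918 CPM in runs 1, 2, 3, 4 and 6, against 78.4 CPM in all other cells. After adding 10 CPM to both, the ratio was 49.2 in the pooled cells and 28.5 to 56.1 in single runs. In the pooled cells this was above the ratio of any other gene with at least 50 CPM in members, while Mpo reached 28.9 in its lowest run. The 10th percentile over members was 21 Ctsg UMIs. Of the erythroid cells, 7.38% had a Ctsg UMI, at a level of 8.25 CPM. Cd34 and Kit, surface marks of earlier progenitors, stood at 27.8 and 37.6 CPM. A Cd34 UMI was found in 156 members (19.3%) and a Kit UMI in 406 (50.1%). With every cell thinned to 3000 UMIs, 5.37% of members and 0.166% of Fcnb neutrophil precursors, at median depths of 23982 and 23052 UMIs, kept a Cd34 UMI. For Kit the thinned shares were 10.1 and 3.90%.

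The last condition of the rule set the border with the next stage. It removed 289 of the 1099 cells that passed the Elane and Mpo thresholds, and those cells held 43225 CPM of Camp and 710 CPM of Ctsg. Inside the border, 57 members (7.04%) had a primary sum under 1.5 times the secondary sum and held 17506 CPM of Camp and 1720 CPM of Ctsg. At the other end, 31 members had no UMI of Camp, Ltf or Ngp and held 5963 CPM of Ctsg. At the Elane threshold, the 5 members with 10 to 12 UMIs had 746 CPM of Elane, and the 13 cells just outside, with 7 to 9, had 418 CPM. At the Mpo threshold, 7 members had 20 to 24 UMIs and 9 cells with 15 to 19 fell outside.

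Other genes that set the members apart from the remaining cells follow, as a description. Ms4a3, a membrane protein used as a mark of granulocyte-monocyte progenitors, stood at 1772 CPM against 80.0 CPM. Prss57, another azurophil granule protease, stood at 386 against 18.0 CPM, and the glutathione transferase Gstm1 at 524 against 30.5 CPM. Cst7, an inhibitor of cysteine cathepsins, stood at 283 against 16.3 CPM. Nkg7, best known from the granules of cytotoxic lymphocytes, stood at 1233, 1090, 1107, 991 and 899.7 CPM in members of runs 1, 2, 3, 4 and 6, against 85.0 CPM in other cells. It was thus present at like levels in every run, and the T and NK cell list summed to 1050 CPM of which Nkg7 was nearly all. Srgn, the proteoglycan core that packs granule proteins, stood at 3700 against 545 CPM, and Plac8 at 3501 against 511 CPM.

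**Figure D2:**
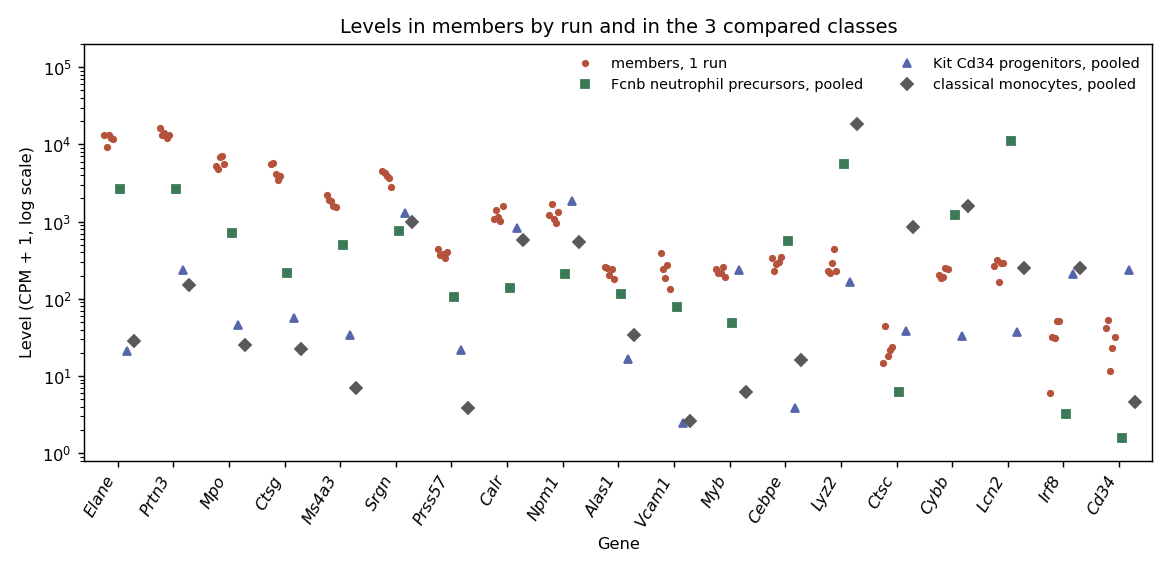
Levels of single genes on a log scale (CPM + 1). Red points are the members of 1 run (runs 1, 2, 3, 4 and 6), and the other symbols are the pooled cells of the 3 compared classes. The genes from Elane to Prss57 lie above all 3 classes in every run, while Lyz2, Cybb and Lcn2 lie below the Fcnb neutrophil precursors.

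For the differences that follow, members were set against 3 classes of cells, each taken by its own UMI rule. They were 1206 Fcnb neutrophil precursors, the next neutrophil stage, 220 Kit Cd34 progenitors and 482 classical monocytes, the sister branch. The progenitors, taken by at least 1 UMI each of Kit and Cd34, were used as an earlier stage. They also carried RNA of other lines, as given below. A gene was measured when it reached 20 CPM in either class, and the log2 difference was taken after adding 10 CPM to both and centred on the median gene. It was counted as higher or lower when the levels differed by at least 2-fold on that scale with the same sign in every run that had 20 cells of both classes. The genes used by the class rules were left out, though genes that vary with them can still be split by the rules. A gene that reached 20 CPM in the other class alone could not be counted as higher. A gene that reached it in members alone could not be counted as lower. Without run 6 the counts of higher and lower genes were 348 and 376 against Fcnb cells, 599 and 548 against progenitors, and 680 and 981 against monocytes. No test stands behind such counts, which hold for the pooled cells, and the median of all measured genes is 0 by the centring.

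Against Fcnb neutrophil precursors, the members had more RNA for making and folding protein and less for the later granules and the oxidase. Of 4961 genes measured, 323 (6.51%) were higher and 361 (7.28%) lower, over 5 runs. On plain totals the median gene was 0.34 above 0 (log2) and the split was 754 higher and 169 lower. The summed S100 and mature neutrophil genes filled 264988 CPM of the Fcnb cells and 45466 CPM of the members, and the secondary and tertiary granule genes 113608 and 8691 CPM. The centring removes the shift of the median gene, and the part of these sums in that shift was not tested.

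On the primary granule list, 8 of the 13 measured (of 18 listed) were higher in members than in Fcnb cells and 1 was lower. The median was 1.45, with 1.11 to 1.69 in single runs. The class rules part the cells by Elane, Mpo and Prtn3, and genes that vary with them are split too. The count is thus a description and no separate support. The 8 were Ctsg, Ms4a3, Prss57, Srgn, Cst7, Ctsz, Plac8 and Gstm1. The list, used in all 3 comparisons, thus also holds genes other than granule proteins, such as the membrane protein Ms4a3 and the glutathione transferase Gstm1. Ctsg had the largest difference among the higher genes, 4336 against 216 CPM, a log2 difference of 3.92 (3.11 to 4.33 over runs). Srgn differed by 1.91 and Prss57 by 1.45. The exception was lysozyme 2 (Lyz2), at 295 CPM in members and 5544 CPM in Fcnb cells, a difference of -4.53. Serpinb1a, an inhibitor of these proteases, was at 1059 and 1215 CPM and was not counted in either direction.

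All of the next stage's granule genes that were counted lay on the other side. Of 14 secondary and tertiary granule genes measured, 12 were lower in members and none was higher, with a median of -2.72. The class rules already part the cells by Camp, Ltf and Ngp, so this count describes the classes and is no separate support. Chil1, at 5.2 against 117 CPM, and Orm1, at 13.8 against 241 CPM, reached 20 CPM in Fcnb cells alone. Lcn2, the siderophore-binding lipocalin, stood at 265 against 10950 CPM, a difference of -5.66. Chil3, a chitinase-like protein, stood at 265 against 6025 CPM. The 2 genes not counted were Hp (haptoglobin), at 1156 and 1494 CPM, and Ltb4r1. S100a8 and S100a9, which form calprotectin, were already at 23943 and 19563 CPM in members, against 133438 and 128823 CPM. The phagocyte NADPH oxidase, which makes superoxide, had 6 of its 8 genes lower and none higher. Its catalytic subunit Cybb stood at 227 against 1222 CPM (-2.72), while Cyba was closer, at 1169 against 1867 CPM (-1.01).

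Secretory and ribosome-making genes were also higher in members than in Fcnb cells. Of 23 genes for folding in the endoplasmic reticulum, 15 were higher and none lower (median 1.23, 1.04 to 1.32 over runs). Calr, the chaperone calreticulin, stood at 1252 against 136 CPM, a difference of 2.77. Hspa5 (BiP), its main Hsp70, stood at 938 against 227 CPM. Of 26 genes for N-glycosylation and transport from the reticulum, 10 were higher and none lower (median 0.80), among them Krtcap2 at 482 against 123 CPM and Spcs2 at 480 against 137 CPM. Of 26 genes of the nucleolus and ribosome assembly, 21 were higher and none lower (median 1.52, 1.25 to 1.68 over runs). Npm1, nucleophosmin, stood at 1192 against 208 CPM, and C1qbp at 194 against 14.1 CPM. Srm, the spermidine synthase, stood at 135 against 6.2 CPM.

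The cell cycle lists went different ways. DNA replication genes had a median of 0.01, with 1 of 30 higher and none lower. Mitosis genes had a median of -0.85, with 11 of 32 lower and none higher. Mki67 stood at 239 CPM in members and 510.1 CPM in Fcnb cells, and Top2a at 263 and 446 CPM. Thinned to 3000 UMIs, 46.6% of members and 72.0% of Fcnb cells kept a Mki67 UMI, against 27.8% of Kit Cd34 progenitors and 26.3% of classical monocytes. Both neutrophil stages thus carried proliferation RNA, and the later one more of the mitotic part.

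Against Kit Cd34 progenitors, the members had more RNA of the granule and oxidase genes and less of the stem and immediate early genes. Of 6253 genes measured, 572 (9.15%) were higher and 537 (8.59%) lower, over 4 runs. On plain totals the median gene was at -0.36 and the split was 326 higher and 1029 lower. Of 13 primary granule genes 12 were higher (median 2.85). The progenitor rule caps the summed UMIs of Elane, Mpo and Prtn3, and genes that vary with them are split too. The primary granule count is thus a description and no separate support. Of 8 secondary and tertiary granule genes all 8 were higher (median 3.39), and of 8 oxidase genes 7 (median 2.35). S100a8 had the largest difference, 23943 against 330 CPM (6.49, 5.68 to 7.57 over runs). The antimicrobial Wfdc21 stood at 1211 against 12.6 CPM and Hp at 1156 against 15.8 CPM. Both reached 20 CPM in members alone and, like other such genes, could not be counted as lower. Trem3, a myeloid receptor, stood at 380 against 1.8 CPM.

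Genes of the reticulum were higher than in these progenitors too, but those of the nucleolus were not. Folding genes had 15 of 24 higher and none lower (median 1.15), and N-glycosylation genes 11 of 26 higher and none lower (median 0.90). None of 28 nucleolar genes was counted in either direction (median -0.17): Npm1 stood at 1192 and 1854 CPM, and Ncl, nucleolin, at 741 and 1390 CPM. Mitosis genes had 16 of 31 higher and none lower (median 1.12), and DNA replication genes 2 of 31 higher and none lower (median 0.14, but -0.22 on plain totals). Of 16 glycolysis genes 7 were higher and 1 lower, with Gapdh at 1960 against 1121 CPM.

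Of 20 stem and multipotent progenitor genes measured (of 25 listed), 19 were lower and none higher (median -2.47). The class was taken by Kit and Cd34, and genes measured through it alone could not be counted as higher, so this count is a description. Against Fcnb cells 6 of the list were measured, with 1 higher and 2 lower. Meis1, a homeobox factor of stem cells, stood at 1.8 against 173 CPM, and Gata2, a stem and mast cell factor, at 2.9 against 184 CPM. Angpt1, an angiopoietin, stood at 1.7 against 180 CPM. Ctla2a had the largest difference among the lower genes, 9.7 against 1059 CPM (-5.40). The progenitor class also carried RNA of other lines. Of 8 erythroid and megakaryocyte genes measured, 7 were lower in members, and of 4 basophil, mast cell and eosinophil genes 3 were lower. The platelet gene Pf4 stood at 58.0 against 1166 CPM, Dntt at 0.37 against 285 CPM and Cd74 at 11.2 against 392 CPM. Whether the class mixes progenitors of several lines was not tested. Immediate early genes, which tissue dissociation can also raise, had 18 of 29 lower and none higher (median -1.46). Fos stood at 568 against 2021 CPM in the pooled cells, and its level in members of runs 1, 2, 3, 4 and 6 was 708, 643, 545, 1035 and 89.3 CPM. Run 6 was thus low for Fos and also for Klf2, at 201 CPM against 806 to 1859 CPM in the other 4 runs. The part of handling in these values was not tested.

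Against classical monocytes, the members had more replication, nucleolar and primary granule RNA and less of the antigen-presenting, immediate early, interferon and endosomal receptor genes. Of 5919 genes measured, 659 (11.1%) were higher and 994 (16.8%) lower, over 5 runs. On plain totals the median gene was at -0.16 and the split was 478 higher and 1169 lower. Of 13 primary granule genes 9 were higher and 3 lower (median 2.43). The monocyte rule caps the summed UMIs of Elane, Mpo and Prtn3, and genes that vary with them are split too. The count of higher primary granule genes is thus a description and no separate support. The 3 lower genes were Lyz2, at 295 against 18647 CPM, Ctsz, and Ctsc, at 21.7 against 844 CPM. Ctsc encodes cathepsin C, which removes the propeptide dipeptide of Elane, Prtn3 and Ctsg. Its level in members of runs 1, 2, 3, 4 and 6 was 13.8, 44.0, 17.0, 20.5 and 22.7 CPM, below the 94.8 CPM of all other cells.

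DNA replication genes had 24 of 30 higher than in monocytes and none lower (median 1.33). The 32 listed summed to 2842 CPM in members and 962 CPM in monocytes. Any that reached 20 CPM in members alone could not be counted as lower. Dut, a pyrophosphatase that keeps uracil out of DNA, stood at 437 against 61.2 CPM. Nucleolar genes had 19 of 26 higher and none lower (median 1.24), and folding genes 8 of 24 higher and none lower (median 0.83). Monocyte and dendritic genes had all 20 measured lower (median -3.92). The class was taken by Ly6c2, Ccr2 and Csf1r, and genes measured through it alone could not be counted as higher, so this count is a description. Against Fcnb cells 10 of the list were measured, with 3 higher and 2 lower. Cd74, the invariant chain of MHC class II, stood at 11.2 against 1817 CPM, and the matrix protein Fn1 at 2.3 against 1362 CPM (-6.64). Type I interferon response genes had 24 of 30 lower and none higher (median -1.50, -1.95 to -0.50 over runs). Against Fcnb cells 5 interferon genes were measured, so most of the 30 entered through monocytes alone and could not be counted as higher. Ifitm3 stood at 109 against 3670 CPM and Isg15 at 16.4 against 120 CPM. Immediate early genes had 21 of 28 lower than in monocytes and 1 higher (median -2.14), with Fos at 568 against 4116 CPM. Against Fcnb cells 9 of 26 were lower and 3 higher (median -0.47). The part of handling was not tested here either.

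**Figure D3:**
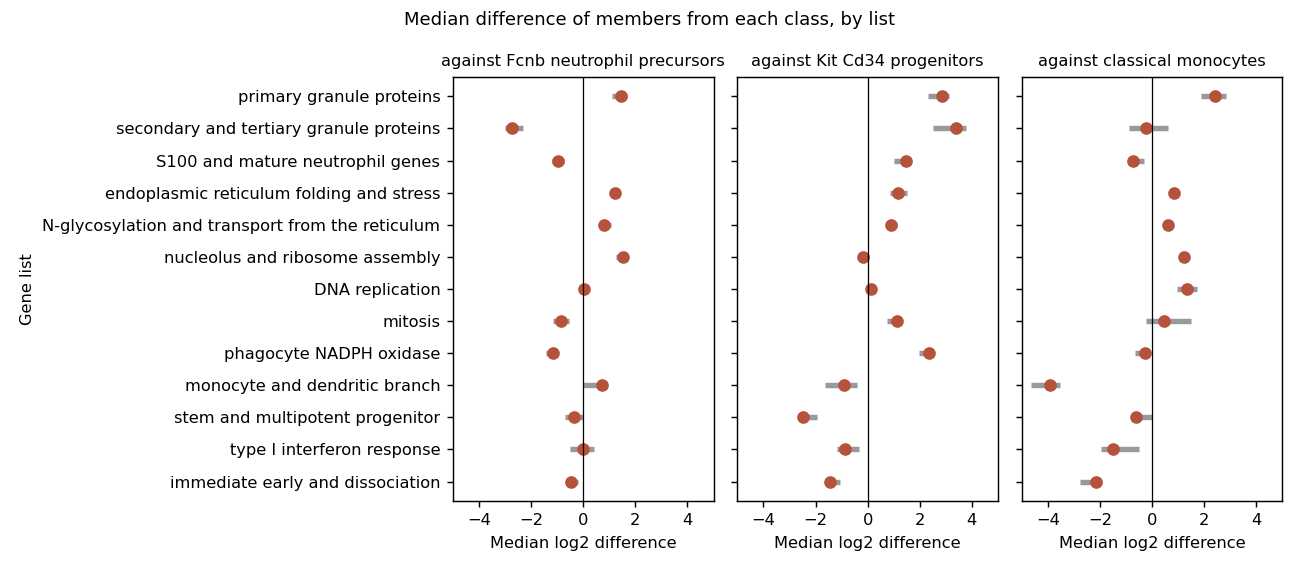
Median log2 difference of the measured genes of each list, members minus the class named above each panel, centred on the median of all measured genes (vertical line at 0). Red points are pooled cells and grey bars span the single runs. The folding list lies to the right of 0 in all 3 panels, at 1.23, 1.15 and 0.83, and the nucleolar list against Fcnb cells and monocytes.

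Cebpe and Gfi1, the neutrophil-branch factors, were above their levels in progenitors and monocytes. Of 31 transcription factors measured against Fcnb cells, 4 were higher and 6 lower, and the median of -0.29 became 0.05 on plain totals. Cebpe, a factor of secondary granule genes, stood at 336, 228, 285, 301 and 348 CPM in members of runs 1, 2, 3, 4 and 6, against 556 CPM in Fcnb cells, 2.9 in Kit Cd34 progenitors and 14.95 in monocytes. It was lower than in Fcnb cells (-1.15) and higher than in both other classes (5.01 and 3.86). Gfi1, a transcriptional repressor needed for neutrophil formation, stood at 44.9, 38.4, 59.1, 57.9 and 14.1 CPM in those runs, with run 6 lowest, against 17.1 CPM in Fcnb cells, 3.6 in progenitors and 0.4 in monocytes. It was higher than in the last 2 classes (2.32 and 2.51) and was not counted against Fcnb cells (0.62). Myb, a factor of dividing progenitors, stood at 220 CPM, against 48.1 CPM in Fcnb cells, 235 in progenitors and 5.2 in monocytes. Spi1 (PU.1) was at 296 CPM in members, 322 in Fcnb cells, 128 in progenitors and 469.9 in monocytes. Cebpa, a factor needed to form these progenitors, was at 37.4 CPM and at 9.7, 10.4 and 70.0 CPM in the 3 classes.

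Receptors were mostly below their levels in monocytes, with 16 of 27 lower and 3 higher, while against Fcnb cells 6 of 22 were lower and 2 higher. Csf3r, the receptor of granulocyte colony-stimulating factor, stood at 67.1 CPM in members, 63.0 in Fcnb cells, 20.5 in progenitors and 78.2 in monocytes. Ifngr1, a chain of the interferon gamma receptor, stood at 276, 298, 286, 232 and 216 CPM in members of runs 1, 2, 3, 4 and 6. It was at 65.6 CPM in Fcnb cells (1.44), 95.3 in progenitors (1.67) and 289 in monocytes (-0.04), so members held about the monocyte level. Ly6g, the surface mark of neutrophils, stood at 1.5 CPM against 106 CPM in Fcnb cells. Clec12a, an inhibitory lectin receptor, stood at 665 CPM, against 368, 25.6 and 226 CPM in the 3 classes.

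Alas1, the first enzyme of heme synthesis outside red cells, stood at 256, 249, 203, 244 and 179 CPM in members of runs 1, 2, 3, 4 and 6. Mpo carries heme. Alas1 stood at 113 CPM in Fcnb cells (0.56, not counted), 15.5 in progenitors (3.54) and 33.3 in monocytes (2.58). Of the other heme and iron genes, none was counted against Fcnb cells, only Slc40a1 was also higher against progenitors, and Abcb10, Tfrc and Slc40a1 against monocytes, where 3 others were lower. Vcam1, an adhesion molecule known from island macrophages, stood at 392, 243, 183, 272 and 133 CPM in the members of those runs. It was at 76.7 CPM in Fcnb cells, 1.4 in progenitors and 1.6 in monocytes, and was counted as higher in all 3 comparisons. In the members the macrophage list summed to 298 CPM (220 to 440 over runs), led by Vcam1 and Slc40a1, and to 633 CPM in all other cells.

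The endosomal Toll-like receptors were near 0. Tlr7, a receptor for single-stranded RNA, had a UMI in 26 of 810 members and stood at 1.5 CPM, against 4.9 in Fcnb cells, 9.0 in progenitors and 44.7 in monocytes. The mouse Tlr8 had a UMI in 4 members, and Tlr9 in 0 of 810, which, taking 3 cells as the limit, allows a share of up to 0.370% of cells with a UMI. Unc93b1 is the chaperone that moves them out of the reticulum. It stood at 78.3 CPM, against 72.5, 66.2 and 342 CPM. Of 12 genes of these receptors and their partners measured against monocytes, 7 were lower and none higher (median -1.40). Against Fcnb cells 5 were measured, so most of the 12 entered through monocytes alone and could not be counted as higher. RNA of the human transgene was not analysed here.

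Clustering the members alone gave 7 sub-clusters, numbered by size, and run 6 shaped them. That run gave nearly all of sub-cluster 1 and no cell of sub-clusters 2 to 5. A level in sub-clusters 2 to 5 against the other members is thus also a level against run 6. The genes took part in the clustering, so their levels are descriptions. Sub-cluster 1 (288 cells) was 98.3% run 6 and was led by Pf4 and globins. Sub-cluster 2 (118 cells) was led by Retnlg, Chil3, Camp, Ngp and S100a9, with Camp at 9727 CPM against 2013 CPM in the other members. Sub-cluster 3 (94 cells) was led by Fkbp11, Hells, Gfi1, Cdca7, Pdia4 and Rpn1, of which Fkbp11, Pdia4 and Rpn1 act in the reticulum. Sub-cluster 4 (92 cells) was led by mitotic genes, with Ube2c at 633 against 188 CPM. Sub-cluster 5 (90 cells) was led by Klf2, Anxa1 and the heat shock gene Hspa1b, and runs 1 and 2 gave 41 and 34 of its cells.

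Sub-cluster 6 (68 cells) carried RNA of earlier progenitors. It was led by Ifitm1, Cpa3, Cd34, Tmem176b, Tmem176a and Ccl9. Cd34 stood at 142 CPM against 15.6 CPM in the other members, and Cpa3, a mast cell and progenitor carboxypeptidase, at 77.1 against 1.7 CPM. Runs 1 and 2 gave 21 and 31 of the cells, and within run 1 Cd34 stood at 166 against 1.0 CPM and within run 2 at 104 against 15.5 CPM. Ctsg was also above the other members there, at 7204 against 5061 CPM in run 1 and 6758 against 5051 CPM in run 2.

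Sub-cluster 7 (60 cells) was led by monocyte-branch genes in cells that met the Elane and Mpo rule. Irf8, a factor of the monocyte and dendritic branch, stood at 425 CPM against 6.2 CPM in the other members, and Klf4 at 272 against 6.7 CPM. F13a1, a transglutaminase of monocytes, stood at 425 against 15.7 CPM, and Ly86 at 162 against 1.2 CPM. Cd34 was raised here too, at 133 against 19.9 CPM. The stem and multipotent progenitor list summed to 1158 CPM in sub-cluster 7 and 1338 CPM in sub-cluster 6. The sub-cluster came from several runs, with 8, 7, 14 and 30 cells in runs 2, 3, 4 and 6. Within those runs Irf8 stood at 249, 499, 563 and 369 CPM, against 10.9, 1.2, 3.9 and 11.4 CPM in the other members of the same run. Elane was at 3287 CPM and Cebpe at 27.5 CPM, against 12775 and 335 CPM in the 750 others, while Mpo was closer, at 4196 against 6141 CPM.

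Few members reached 3 UMIs of both branches' factors. At least 3 UMIs of Irf8 were found in 59 of the 810 members and at least 3 of Gfi1 in 109 of the 810, and no member had both. The overlap that unrelated genes would give at these shares was not tested. Of the 59 Irf8 members, 5 also had 3 Cebpe UMIs, a count that 665 of all 810 members reached. Of the same 59, 22 had 3 Cd34 UMIs, a count that 59 of all 810 members reached. Gfi1 reached 3 UMIs in 17, 10, 31, 40 and 1 members of runs 1, 2, 3, 4 and 6, and Irf8 in 3, 10, 6, 15 and 25, so the shallow run 6 holds many of the Irf8 members and hardly any of the Gfi1 members. These are counts in sparse data.

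Because run 6 shaped the first grouping, the mean of each run was removed per gene and the members were clustered again, a step added after the data were seen. It gave 6 sub-clusters. The first (243 cells) was led by Ngp, Chil3, Camp, Retnlg, S100a9 and Lcn2, with Camp at 8230 against 1399 CPM. The second (202 cells) was led by Fkbp11, Sdf2l1, Manf, Hells, Pdia4 and Dnajc3, with Manf at 688 against 416 CPM, and had the highest Ctsg level, 5875 CPM. The third (147 cells) was led by mitotic genes, with Ube2c at 744 against 137 CPM, and the fourth (106 cells) by histone genes, with Hist1h1b at 515 against 210.3 CPM. The fifth (100 cells) was led by Ifitm1, Irf8, S100a10, Ms4a6c, Klf4 and Cd34. It took in 33 cells of the earlier sub-cluster 6 and 59 of the earlier sub-cluster 7. The sixth (12 cells) held the only members with at least 5% globin UMIs.

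Removing each run's mean draws the runs toward the same shares, so evenness over runs is no result. The shares in runs 1, 2, 3, 4 and 6 are given as a description. The Camp-led group took 34.9, 24.4, 31.0, 30.7 and 30.0% of the members. The Irf8 and Cd34 group took 13.3, 24.4, 10.9, 11.4 and 11.04%, with run 2 the highest. The mitotic group took 19.3, 5.13, 17.1, 14.5 and 23.97%, with run 2 the lowest. Since no run has a known tissue or genotype, these differences cannot be tied to a condition.

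Across the 6 groups the granule RNAs followed different courses. Elane stood at 12913, 12582, 14648, 12907, 4386 and 10856 CPM in groups 1 to 6, so the fifth was the lowest and the others differed by less than 2-fold. Ctsg stood at 2595, 5875, 4722, 5274, 3259 and 4062 CPM, with the Camp-led first group lowest. Cebpe stood at 448, 257, 360.1, 312, 58.2 and 288 CPM, highest in the first group and lowest in the fifth. The nucleolar list summed to 2904, 5243, 4136, 5096, 7677 and 3692 CPM, highest in the fifth and lowest in the first.

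**Figure D4:**
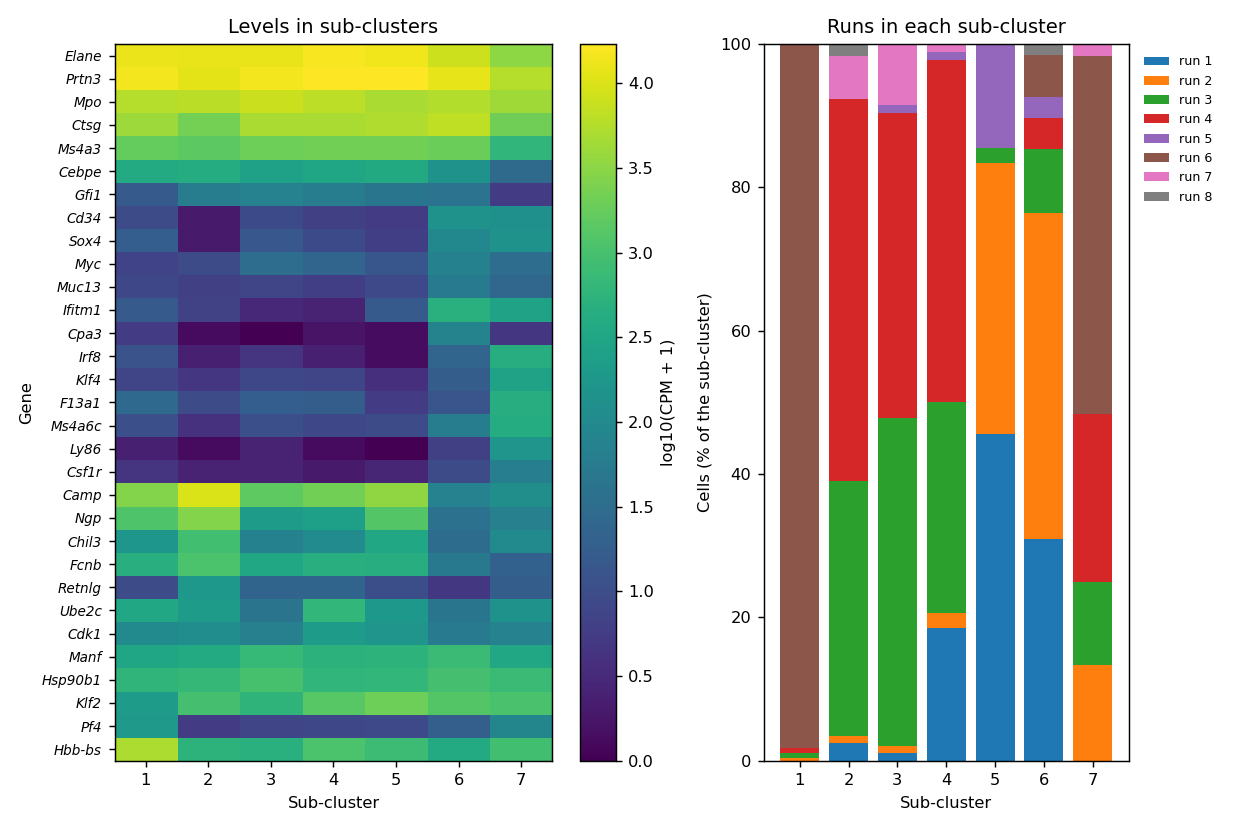
Left, levels of single genes in the 7 sub-clusters of the members (colour, log10 of CPM + 1). Right, share of each sub-cluster's cells that came from each run. Sub-cluster 1 is nearly all run 6, while the Irf8 and Klf4 cells of sub-cluster 7 come from runs 2, 3, 4, 6 and 7.

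**Figure D5:**
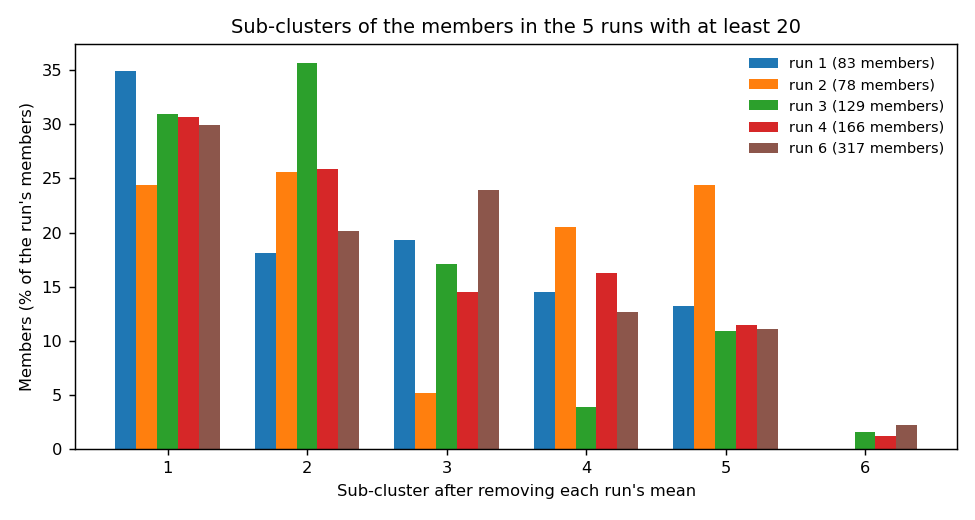
Share of each run's members in the 6 sub-clusters found after the mean of each run was removed. The first group holds 24.4 to 34.9% of the members of every run shown, and the fifth is at 24.4% in run 2 and 10.9 to 13.3% in the others.

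RNA of other cell types in the members was low but uneven between runs. Globins summed to 3120 CPM (264 to 5587 over runs), against 203725 CPM in all other cells. Pf4, a platelet gene, stood at 197 CPM in members of run 6 and 3.5 to 14.97 CPM in the other 4 runs, and at 344 CPM in the erythroid cells of run 6. Immunoglobulin RNA was far higher in 1 cell than in the rest: the B and plasma cell list summed to 491 CPM, and a single member of run 6 in sub-cluster 7 held 3866 Igkc UMIs. Without it, Igkc in sub-cluster 7 fell from 3062 to 188 CPM and Irf8 was 427 CPM. Ms4a1, the B cell antigen CD20, was at 0. The basophil, mast cell and eosinophil list summed to 49.2 CPM, and the endothelial and stromal list to 10.6 CPM with Kdr at 0. The part of free RNA or joined cells in these values was not tested.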

How the data were processed

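The values the authors deposited are UMI counts without normalisation, 1 table for all 10x Genomics V3.1 libraries. Cell Ranger 5.0.0, Seurat 3.1.5 and mm10 are listed in the submitters' processing notes. Filters on cells before deposit are not given there. In all there were 248384567 UMIs in 19669 genes and 24942 cells with 500 to 83490 UMIs. All cells were kept, and no doublet caller was run. Runs of sorted barcodes served as unnamed libraries, and were never assigned to groups. The planned tests of transgenic against control libraries could not be made, because no cell could be tied to a library.

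For each class, summed UMIs were scaled to CPM, with exact 95% Poisson intervals for levels and Clopper-Pearson intervals for shares (Python 3.11.15, numpy 2.4.6, scipy 1.17.1, pandas 2.3.3). The Poisson interval of Elane in members, for example, was 12058 to 12157 CPM. Fcnb neutrophil precursors had at least 10 Fcnb UMIs, a sum of Camp, Ltf and Ngp of at least 20 and no smaller than that of Elane, Mpo and Prtn3. Kit Cd34 progenitors had at least 1 UMI of Kit and of Cd34, under 10 of Elane, Mpo and Prtn3 together and under 2% globin. Classical monocytes had at least 10 Ly6c2, 2 Ccr2 and 2 Csf1r UMIs and under 10 of those 3 granule genes together. The 2 cells that met more than 1 class rule were left out. Members were clustered with scanpy 1.11.5 and leidenalg 0.10.2 (resolution 0.5, 15 neighbours, 20 components, 1500 variable genes, seed 0). Calculations were tested on simulated data.

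The members, the 25 gene lists, the markers and the rule for named genes were chosen with earlier results of these data known. The rule took the 4 markers, the genes of the rule, the 15 genes with the highest ratio to other cells, and the 8 highest and 8 lowest genes of each comparison. It added up to 6 genes of each list by level in members, any listed transcription factor, receptor or Toll-like receptor, and 6 leading genes of each sub-cluster. Ctsc, Ctsz, Serpinb1a, Ltb4r1, Abcb10, Kdr and Ms4a1 lie outside this rule and were named after their values were seen. GENCODE M21 gave gene positions, and RefSeq gave the promoter windows of all 4 markers.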

Additional observations from a re-analysis of the deposited data

How the results depend on the processing

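No paired analysis was possible because the columns carry no library or replicate number that the labels give. Differences between classes were also taken within single runs, and their ranges stand beside the values. Members numbered 865 at 5 Elane and 10 Mpo UMIs, 762 at 20 and 40, and 803 without repeated barcodes. Their share of cells was 4.41% without the third condition, 3.82% with thresholds per 10000 UMIs and 3.92% with a filter of 500 genes and 10% mitochondrial UMIs per cell. A planned limit on RNA of other cell types left 121 members (0.485%), since Nkg7, Vcam1 and Slc40a1 of the limiting lists are carried by the members; without these 3 genes, a change made after seeing the data, the share was 2.87%. Leaving out 1 run gave 493 (without run 6) to 807 members and 2.72% (without run 6) to 3.597% (without run 5). Sub-clusters numbered 4 at resolution 0.25 and 12 at resolution 1.

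Against Fcnb cells, higher and lower genes were 754 and 169 on plain totals, 528 and 556 with 1 CPM added, and 749 and 196 with no minimum level. Against Kit Cd34 progenitors they were 326 and 1029 on plain totals, and the lower genes 842 with 1 CPM added and 896 with no minimum. Leaving out 1 run gave 297 to 348 higher and 339 to 376 lower genes against Fcnb cells, 550 to 605 and 522 to 583 against progenitors, and 641 to 690 and 964 to 1027 against monocytes, and no alternative moved the monocyte counts by over 1.5 times.

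Of the list medians, 7, 7 and 2 alternative values changed sign in the 3 comparisons. Against Fcnb cells on plain totals these were transcription factors at 0.050, receptors at 0.13 and stem genes at 0.0036. With no minimum they were 0.028, 0.10 and 0.17, and with the planned limit stem genes were at 0.76. Against progenitors on plain totals they were receptors at -0.10 and DNA replication at -0.22. With no minimum they were receptors at -0.18, heme genes at -0.0079 and DNA replication at -0.031, with the planned limit monocyte and dendritic genes at 0.37, and without run 6 receptors at -0.070 (leaving out 1 run gave up to 0.31). Against monocytes stem genes were at 0.42 with no minimum and 1.47 with the planned limit. The cause was not tested. All 288 alternative values of the log2 differences of single genes computed in each comparison kept sign and call. They covered only the genes with the largest differences, where a call is hard to lose. They thus do not test the other counted genes. Of the 684 genes counted against Fcnb cells, 492 were also counted on plain totals, 506 with no minimum level and 669 with 1 CPM added. On plain totals, 863 of 1109 were kept against progenitors and 1472 of 1653 against monocytes. With 3 UMIs as the floor, levels under 0.157 CPM in members, 1.08 CPM in progenitors and 0.412 CPM in monocytes were not detectable.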
